A study of Mus musculus with 12 samples.

Results

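Complex I genes whose products lie outside the NADH-oxidising N module of the enzyme are described here, in white and brown fat of mice with an adipocyte deletion of NDUFS4. They were taken by symbol, under a rule set with earlier results of these data known. The rule takes the protein-coding genes named Nduf with the letter a, b, c, s, v, ab or af and a number, less 9 genes of the N module and its assembly (Ndufs1, Ndufs4, Ndufs6, Ndufv1, Ndufv2, Ndufv3, Ndufa2, Ndufa12 and Ndufaf2). This gave 38 genes of the 16738 in the authors' deposited table for inguinal white fat (iWAT) and the same 38 of the 15363 in that for brown fat (BAT). Of these, 29 encode structural subunits, 7 encode assembly factors (Ndufaf genes), and 2, Ndufa4 and Ndufa4l2, carry the family name but are not counted as complex I subunits in current structures. A further 4 symbols of the pattern in each table are processed pseudogenes and were not members. All 38 enter each count below, since no filter was added, and the authors' own filter on low values is unknown here.

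The labels list 12 libraries of inguinal white fat, the subcutaneous depot of the groin, from C57BL/6 mice. The 4 groups of 3 are males and females, each WT or KO. The knockout is named Adipo-NDUFS4, which is read here as a deletion in adipocytes, and both genotypes ate a high-fat diet at room temperature. The sources used here do not name the Cre driver, the age of the mice or the number of animals behind a library, so p-values measure the spread between libraries, which may be technical. The labels name no brown fat library, and the groups behind that table are not described here. What the tables hold is 1 comparison per depot, the interaction of genotype and sex: the log2 change with the knockout in females, less the same change in males. It asks whether loss of NDUFS4 was followed by a different change in the sexes. Which sex is subtracted from which is known here only from the tables' names, and the signs below depend on it. An interaction above 0 can come from a higher level in KO females, a lower one in KO males, or the WT animals of either sex. Library columns carry names that match no label and were not used here, so no value per library, group mean or depth is given. Precision is the standard error of the authors' fit.

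Complex I is the L-shaped enzyme of the inner mitochondrial membrane that takes electrons from NADH, passes them along iron-sulfur clusters to ubiquinone and pumps protons. The N module at the tip of its matrix arm oxidises NADH, and NDUFS4 is an accessory subunit that holds this module to the rest. The Q module below it reduces ubiquinone, and the membrane arm, built in modules named for the mitochondria-encoded proteins ND1, ND2, ND4 and ND5, pumps protons. Assembly factors hold and modify the intermediates and leave before the enzyme is complete. In fat, brown adipocytes are rich in mitochondria and burn fuel for heat, and white adipocytes hold far fewer.

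Promoter sequence was read for 34 of the 38 genes from RefSeq windows of 250 bases before to 50 after each start (build GRCm38.p6). These windows are shown because nearly all members lay on the same side of 0 in white fat. Letters typical of 3 regulators of nuclear mitochondrial genes were searched on both strands. They were GCGCATGCG for NRF1, CCGGAAG for the ETS family to which GABPA belongs, and AAGATGGCG for YY1. No motif is part of another. The NRF1 letters were in 4 of 34 members (11.8%), against 1.95% of all 27025 genes with a window and 3.79% of the 10912 that are protein-coding in the white fat table. ETS letters were in 6 of 34 (17.6%, against 9.93% and 18.6%) and YY1 letters in 4 of 34 (11.8%, against 1.64% and 3.26%). All 4 YY1 matches lie after the start of transcription, at offsets of 10 to 29 bases. The YY1 letters contain ATG, and whether these matches cover a start codon was not checked. At least 1 of the 3 stood in 13 members (38.2%, against 12.7% and 23.8%). For each motif the 2 carriers with the smallest p in white fat are printed, 5′ to 3′ on the strand of the gene, with the searched letters (either strand) in capitals. Overlapping matches on both strands of the NRF1 letters are merged. The stretches lie at chr2:36049339-36049367 (Ndufa8, minus strand), chr17:56717682-56717730 (Ndufa11, plus), chr4:40279627-40279671 (Ndufb6, minus), chr2:90904722-90904768 (Ndufs3, minus), chr6:126849097-126849125 (Ndufa9, minus) and chr10:80249463-80249491 (Ndufs7, plus).
Ndufa8, NRF1 letters: cgcttgcgcgtcgctggagaCGCATGCGC
Ndufa11, NRF1 letters: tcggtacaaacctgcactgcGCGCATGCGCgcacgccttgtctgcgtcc
Ndufb6, ETS letters: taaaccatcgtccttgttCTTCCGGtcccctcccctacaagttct
Ndufs3, ETS letters: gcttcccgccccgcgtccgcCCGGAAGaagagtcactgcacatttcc
Ndufa9, YY1 letters: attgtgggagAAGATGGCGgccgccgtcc
Ndufs7, YY1 letters: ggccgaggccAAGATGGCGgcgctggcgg

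These matches describe the letters only. In white fat the 4 carriers of the NRF1 letters (Ndufa8, Ndufa11, Ndufaf4 and Ndufaf5) had log2 interactions from 0.90 to 1.36 (median 1.13), within the range of 0.33 to 2.24 (median 1.0) over the 30 members with a window that lacks them. The median was 1.11 for the 6 carriers of ETS letters and 1.08 for the 28 others. It was 1.07 for the 4 carriers of YY1 letters and 1.08 for the 30 others. The ranges of members with and without each motif overlapped.

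Ndufs4, the targeted gene, is no member and was read first. Its log2 interaction in the authors' deposited table was 0.89 ± 0.38 (standard error) in white fat, with an adjusted p of 0.169 (limma), and -0.10 ± 0.14 (adjusted p = 0.946) in brown fat. A difference between sexes does not show how far the gene was lowered, and the genotype labels thus stay unchecked here.

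In white fat, 37 of the 38 members lay above 0, where 55.9% of all genes and 57.3% of protein-coding genes did, and the exception was Ndufa4l2. The median over members was 1.10, against 0.13 over all genes. Relative to that shift of all genes the same 37 lay above 0, with a median of 0.97. No member passed an adjusted p of 0.05 over all genes in limma, a threshold that 4.75% of all genes passed. At an unadjusted p of 0.05, 17 members passed (44.7%), each of them above 0, where 11.9% of all genes passed above 0 and 24.5% in either direction. Holm adjustment in place of Benjamini-Hochberg passed 0 of all 16738 genes, so its 0 members say nothing about the list. At an adjusted p of 0.10 the count was 5 members, against 12.1% of all genes. The 5 were Ndufa4, Ndufb4, Ndufa8, Ndufb6 and Ndufc2. No p is given for the list, whose members share libraries and were picked with earlier results of these data known.

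**Figure D1:**
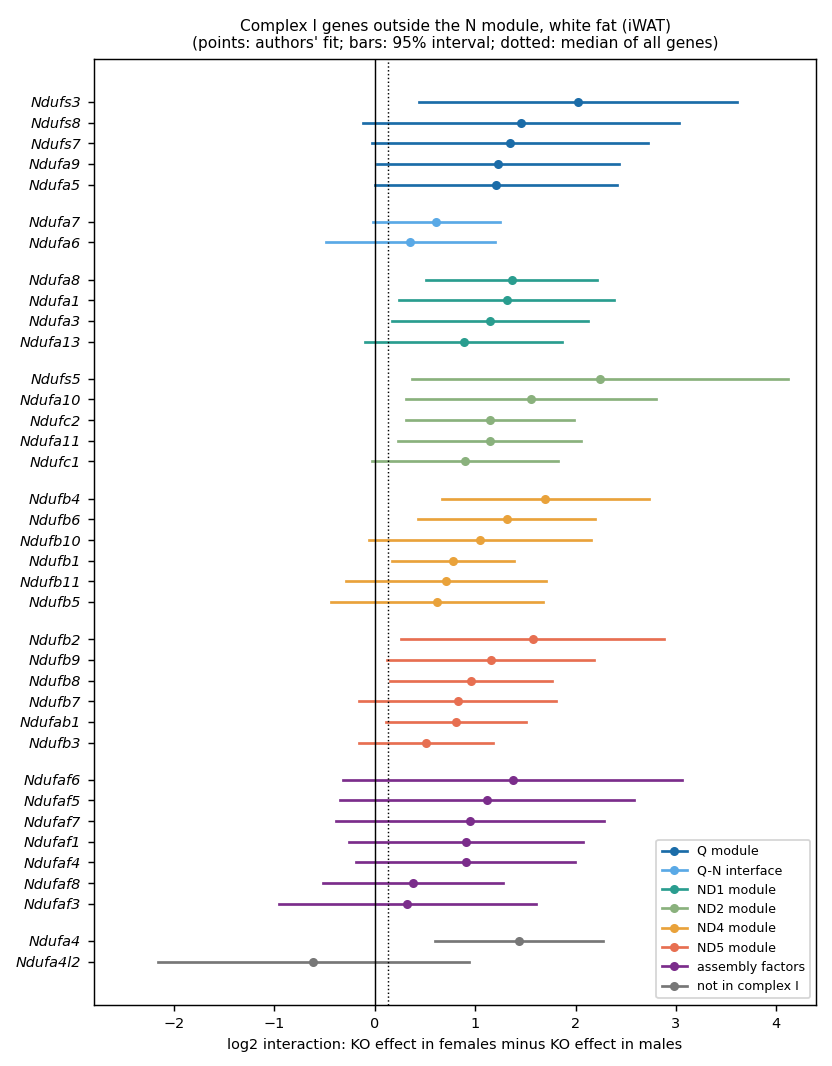
Log2 interaction in white fat for 37 members, grouped by module (points, the authors' fitted values; bars, 95% intervals; dotted line, the median of all genes, 0.13). All points but that of Ndufa4l2 lie to the right of 0, and the intervals of 17 of them do not reach 0.

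The Q module, which hands electrons to ubiquinone, held the highest module median in white fat, 1.29 over 6 genes, of which 5 are described singly. Ndufs3, a core subunit of the matrix arm without an iron-sulfur cluster of its own (ENSMUSG00000005510.10, chromosome 2, 90724978 to 90735171, GRCm39), was at 2.03 ± 0.74 in the authors' deposited table (95% interval 0.44 to 3.61, adjusted p = 0.115). For Ndufa9, an accessory subunit next to the ubiquinone site, the authors' deposited table gave 1.23 ± 0.56 (adjusted p = 0.197). The core subunits Ndufs8 and Ndufs7, which carry iron-sulfur clusters, were at 1.46 ± 0.73 (adjusted p = 0.236) and 1.35 ± 0.64 (adjusted p = 0.211, from the authors' deposited table). The accessory subunit Ndufa5 was at 1.21 ± 0.56 (adjusted p = 0.204, from the authors' deposited table). The intervals of these 5 overlap, and of them those of Ndufs3 and Ndufa9 stayed above 0.

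At the border of the Q and N modules sit Ndufa6, a LYR-motif protein that binds the mitochondrial acyl carrier protein, and Ndufa7. Ndufa6 had the lowest value of any structural subunit in white fat, 0.35 ± 0.39 (interval -0.49 to 1.19, adjusted p = 0.602, from the authors' deposited table). Ndufa7 was at 0.61 ± 0.29 (interval -0.02 to 1.25, adjusted p = 0.215, from the authors' deposited table). Both intervals include 0.

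The membrane arm begins with the ND1 module, where 4 of 4 genes lay above 0 with a median of 1.23. Ndufa8, a protein of the intermembrane space side (ENSMUSG00000026895.8, chromosome 2, 35926338 to 35939418, GRCm39), was at 1.36 ± 0.39 in the authors' deposited table (interval 0.51 to 2.21, adjusted p = 0.0611). For X-linked Ndufa1, a small membrane-anchored subunit, the authors' deposited table gave 1.31 ± 0.50 (adjusted p = 0.128). Ndufa3 followed with 1.15 ± 0.45 (adjusted p = 0.141), and Ndufa13, also known as GRIM-19, with 0.89 ± 0.46 (adjusted p = 0.245, from the authors' deposited table).

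In the ND2 module all 5 genes lay above 0, with a median of 1.15. Ndufc2 (ENSMUSG00000030647.9, chromosome 7, 97049210 to 97057009, GRCm39) was at 1.15 ± 0.39 in the authors' deposited table (interval 0.31 to 1.98, adjusted p = 0.0941). Ndufa11, a membrane subunit related to the protein translocases of the inner membrane, was at 1.14 ± 0.42 (adjusted p = 0.119, from the authors' deposited table). Ndufa10, whose fold is that of a nucleoside kinase, was at 1.56 ± 0.58 (adjusted p = 0.120) and Ndufc1 at 0.90 ± 0.43 (adjusted p = 0.214, from the authors' deposited table). The highest point estimate of all members belonged to Ndufs5, a subunit facing the intermembrane space, with 2.24 and also the widest error, 0.87 (interval 0.37 to 4.12, adjusted p = 0.134, from the authors' deposited table). Its mean log2 expression over the white fat libraries was 2.83, the lowest of the 29 subunits.

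The ND4 module (6 genes, median 0.91) spread from 0.62 to 1.70. Ndufb4 (ENSMUSG00000022820.5, chromosome 16, 37467532 to 37474815, GRCm39) had the smallest p of any structural subunit, with 1.70 ± 0.48 in the authors' deposited table (interval 0.67 to 2.73, adjusted p = 0.0566). Ndufb6 (chromosome 4, 40270591 to 40279421) was at 1.32 ± 0.41 (interval 0.43 to 2.20, adjusted p = 0.0736) in the authors' deposited table. Ndufb1 was at 0.78 ± 0.28 (adjusted p = 0.116), the smallest error of all members, and Ndufb10 at 1.05 ± 0.51 (adjusted p = 0.226, from the authors' deposited table). X-linked Ndufb11 (0.71 ± 0.46, adjusted p = 0.357) and Ndufb5 (0.62 ± 0.49, adjusted p = 0.452) were lowest in the authors' deposited table.

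At the far end of the membrane arm the ND5 module (6 genes, median 0.89) had a like spread, from 0.51 to 1.57. Ndufb2 was at 1.57 ± 0.61 (adjusted p = 0.134) and Ndufb8, often used as a marker of assembled complex I on blots, at 0.96 ± 0.37 (adjusted p = 0.136, from the authors' deposited table). Ndufb9, like Ndufa6 a LYR-motif protein, was at 1.15 ± 0.48 (adjusted p = 0.159), and Ndufab1, the mitochondrial acyl carrier protein that such proteins bind, at 0.81 ± 0.32 (adjusted p = 0.147, from the authors' deposited table). Ndufb7 (0.83 ± 0.45, adjusted p = 0.277) and Ndufb3 (0.51 ± 0.31, adjusted p = 0.325) had intervals that include 0 in the authors' deposited table. Module medians ran from 0.48 at the Q-N border to 1.29 in the Q module, beside a median standard error of 0.48 for a single member, and differences between modules were not tested.

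All 7 assembly factors lay above 0 in white fat (median 0.91), but none reached an unadjusted p of 0.05. Ndufaf4, which with Ndufaf3 assembles the Q module, was at 0.90 ± 0.50 (adjusted p = 0.284) and Ndufaf3 at 0.33 ± 0.60 (adjusted p = 0.764, from the authors' deposited table). Ndufaf6, needed early in assembly, was at 1.37 ± 0.78 (adjusted p = 0.294, from the authors' deposited table). Ndufaf1, a member of the assembly complex of the ND2 module, was at 0.91 ± 0.54 (adjusted p = 0.312, from the authors' deposited table). Ndufaf5, which hydroxylates an arginine of NDUFS7, was at 1.11 ± 0.68 (adjusted p = 0.326), and its partner Ndufaf8 at 0.38 ± 0.42 (adjusted p = 0.600, from the authors' deposited table). Ndufaf7, an arginine methyltransferase, was at 0.94 ± 0.62 (adjusted p = 0.363, from the authors' deposited table). The factors were measured less precisely than the subunits, with a median standard error of 0.60 against 0.46.

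A pair of genes share the family name but not the enzyme, and the difference between them was not tested. Ndufa4, a subunit associated with complex IV (ENSMUSG00000029632.8, chromosome 6, 11900291 to 11907496, GRCm39), had the smallest p of all 38 genes, with 1.44 ± 0.39 in the authors' deposited table (interval 0.60 to 2.27, adjusted p = 0.0509). It passed the threshold when the adjustment was made over protein-coding genes only (adjusted p = 0.0483) or over better expressed genes only, those whose mean log2 expression reached log2 of 10 (0.0481), and relative to the median of all genes its adjusted p was 0.0639. Ndufa4l2, the hypoxia-induced paralog, was at -0.61 ± 0.72 (interval -2.16 to 0.94, adjusted p = 0.627, from the authors' deposited table), with a mean log2 expression of 1.78. Its interval includes 0, so no difference between the sexes was detectable for it at this precision.

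In brown fat the members lay closer to 0 and were measured with smaller errors. There 33 of 38 were above 0, against 51.03% of all genes, with a median of 0.19 over members and 0.01 over all genes. No member passed an adjusted p of 0.05 in limma, nor of 0.10, and 0.013% of all genes did at either threshold (2 genes, Tmem45b and Ntrk3). At an unadjusted p of 0.05, 5 members passed, all above 0, where 3.33% of genes passed above 0 and 6.51% in either direction. The median standard error of the members was 0.15, against 0.48 in white fat. For 28 of the 29 subunits the 95% interval in brown fat ended below 1, and without Ndufs5 the highest upper bound was 0.80. In white fat no subunit had an upper bound below 1.

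**Figure D2:**
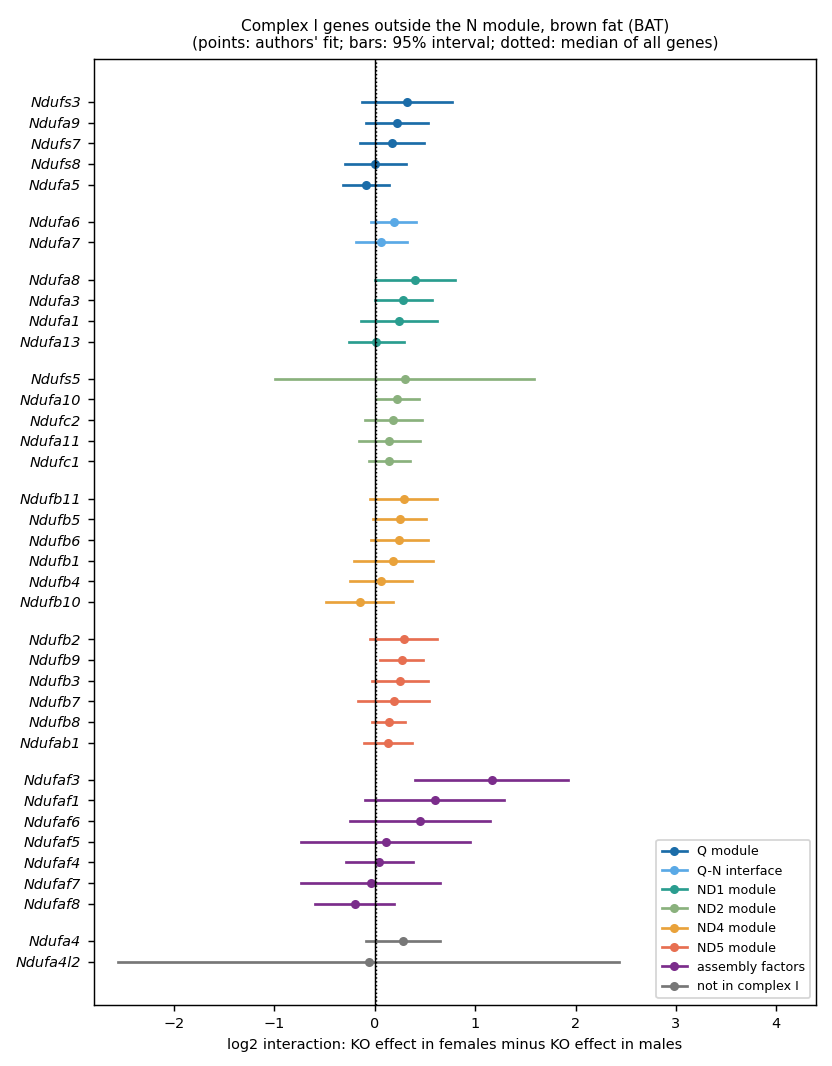
Log2 interaction in brown fat for 37 members, drawn as for white fat and on the same axis (points, the authors' fitted values; bars, 95% intervals; dotted line, the median of all genes, 0.01). Most points lie between -0.20 and 0.40, with Ndufaf3 at 1.17 and wide bars for Ndufs5 and Ndufa4l2.

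The assembly factor Ndufaf3 (ENSMUSG00000070283.5, chromosome 9, 108442736 to 108444633, GRCm39) had the highest value of the members in brown fat in the authors' deposited table, with 1.17 ± 0.37 (interval 0.41 to 1.93, p = 0.00371, adjusted p = 0.565). Other members with an unadjusted p under 0.05 in brown fat were Ndufb9 at 0.27 ± 0.11 (adjusted p = 0.690), Ndufa10 at 0.23 ± 0.11 (0.751) and Ndufa8 at 0.40 ± 0.20 (0.762), from the authors' deposited table. Below 0 lay Ndufaf8 (-0.20 ± 0.19), Ndufb10 (-0.15 ± 0.17), Ndufa5 (-0.08 ± 0.11), Ndufa4l2 (-0.06 ± 1.23) and Ndufaf7 (-0.04 ± 0.34) in the authors' deposited table, each with an interval that includes 0. Module medians in brown fat ran from 0.13 at the Q-N border to 0.26 in the ND1 module, and the assembly factors had 0.11.

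Set side by side, the white and brown fat values of the members were only weakly correlated. The white fat value was the higher one in 36 of 38 members, and in all 29 subunits. The exceptions were Ndufaf3 (0.33 in white fat, 1.17 in brown fat) and Ndufa4l2. The share of all genes with a higher white fat value was not computed, so these counts have no baseline. The median over all genes was 0.13 in white fat and 0.01 in brown fat. For the nuclear subunits of complexes II to V the medians were 0.995 and 0.15. Ndufb4 stood at 1.70 in white fat and 0.06 ± 0.15 in brown fat, and Ndufs8 at 1.46 and 0.01 ± 0.15, in the authors' deposited table. Ndufs5, the highest in white fat, was at 0.30 ± 0.64 in the authors' deposited table for brown fat. Across the 38 members the white and brown fat values had a Pearson r of 0.08 and a Spearman rho of 0.26, and across the 29 subunits 0.18 and 0.23. The points share their libraries within a depot, so these are descriptions. With a median standard error of 0.46 for a subunit in white fat and 0.14 in brown fat, the order of members within a depot is uncertain. A difference in order between depots is thus not shown. The tables were normalised separately, and the difference between depots was not tested.

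**Figure D3:**
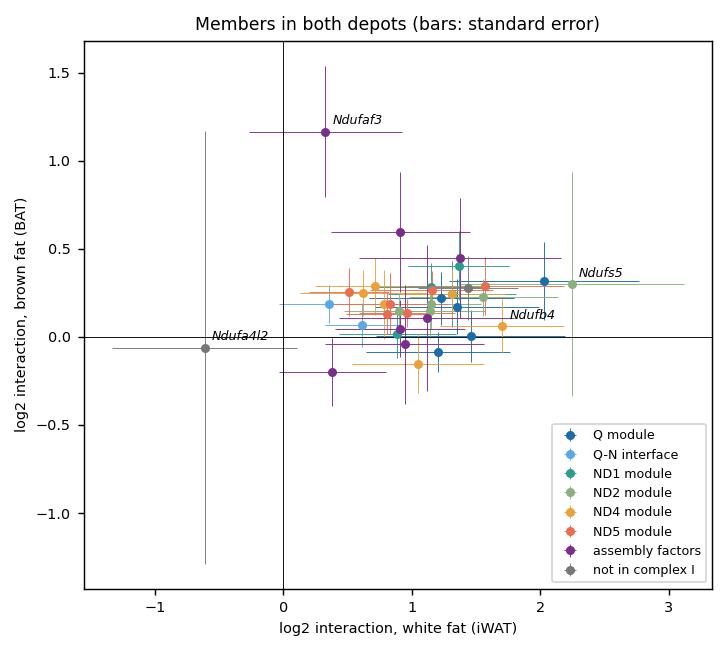
White fat (x axis) against brown fat (y axis) log2 interaction of 37 members, coloured by module, with standard errors as bars. The subunits spread from 0.35 to 2.24 along the white fat axis and only from -0.15 to 0.40 along the brown fat axis, and Ndufaf3 is highest in brown fat at 1.17.

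Better expressed members were measured more precisely. Mean log2 expression, which does not correct for gene length, ran from 1.78 (Ndufa4l2) to 8.96 (Ndufb8) in white fat and from 0.44 to 11.09 for the same genes in brown fat. It was higher in the brown fat table for 37 of 38 members, Ndufa4l2 being the exception, by a median of 1.49 over the members, with the caution that the tables were normalised separately. Across members, mean log2 expression and standard error had a Spearman rho of -0.73 in white fat and -0.95 in brown fat. Scaled by exon length (GENCODE M21 union exons, which retained introns can lengthen), the subunits had a median rank at percentile 97.8 of all genes in white fat and 99.0 in brown fat. On the same scale the assembly factors were at percentiles 74.2 and 86.9. Highest on this length-scaled log2 level in white fat was Ndufb3 (9.14), followed by Ndufa1 (8.40) and Ndufc2 (8.26), and lowest of the subunits were Ndufs5 (3.05), Ndufb2 (3.40) and Ndufs3 (3.88). No spread over libraries is given for these levels, so neighbours in the order cannot be separated.

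**Figure D4:**
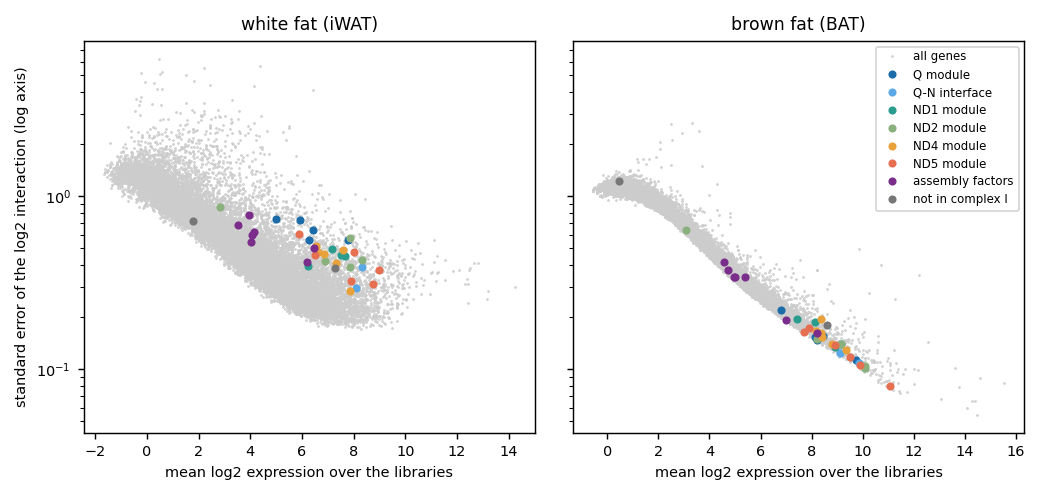
Standard error of the log2 interaction (y axis, log scale) against mean log2 expression (x axis) for all genes (grey) and 37 members (coloured by module) in white fat (left) and brown fat (right). The members have a median standard error of 0.48 in white fat and 0.15 in brown fat, and Ndufs5, Ndufa4l2 and most assembly factors sit at the low-expression side.

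Some members share sequence with other genes, and the sources used here do not say how the authors' counting treated such reads. Of 37 members with a protein-coding transcript in GENCODE M21 (Ndufb1 has none there), 19 shared no 50-base window with a transcript of another gene, 12 shared under 20% of windows and 6 shared more. Those were Ndufs3 (39.7%, mostly with Gm12251), Ndufb4 (37.0%, with Ndufb4c), Ndufb6 (31.6%, with the overlapping gene Smim27), Ndufa13 (28.5%, mostly with Tssk6), Ndufb9 (23.4%, with Gm49356) and Ndufs5 (21.7%, with BC002163). Their values are therefore uncertain, Ndufs5 and Ndufs3 (the highest point estimates) and Ndufb4 (the smallest p of a subunit) among them. Without these 6 genes, 31 of 32 members lay above 0 in white fat with a median of 1.0. The pseudogene Ndufb4c was at 3.19 ± 1.30 in white fat (adjusted p = 0.153) with a mean log2 expression of 0.76 in the authors' deposited table, and Ndufs5-ps at 0.30 ± 1.19 (adjusted p = 0.898).

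The 38 genes lie on 15 autosomes and the X chromosome, which holds 2 of them (Ndufa1 and Ndufb11). Many sit back to back with another gene. For 14 members a protein-coding gene of the white fat table starts within 1 kb on the opposite strand, by the coordinates of the table (GRCm39). In these pairs the member had the higher white fat interaction in 12 of 14. The exceptions were Ndufb5 beside Mrpl47, a protein of the mitochondrial ribosome, at 1.20 ± 0.75, and Ndufb3 beside Fam126b at 0.92 ± 0.32 in the authors' deposited table. The members of the pairs had a median of 1.10 (0.38 to 2.03). Their neighbours had one of 0.09 (-1.27 to 1.20), with 8 of 14 above 0 and 1 past the adjusted p. These neighbour values are near those of genes at large. Protein-coding genes had a median of 0.15 with 57.3% above 0, and 4.75% of all genes passed the adjusted p. Some neighbours had low expression, as Asb15 beside Ndufa5 (mean log2 expression -0.68), and some pairs overlap, as Ndufb5 and Mrpl47 do. Neighbours were picked by position, and a difference within pairs was not tested.

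The closest pair is Ndufa7 (chromosome 17, 34043546 to 34057291, GRCm39) and Rps28, a protein of the cytosolic ribosome, whose starts are 10 bases apart. Rps28 was at -1.27 ± 0.26 in the authors' deposited table (adjusted p = 0.0357, limma), the only neighbour past the threshold, and Ndufa7 at 0.61 ± 0.29 (adjusted p = 0.215). The point estimates of these adjacent genes lay on opposite sides of 0, but the interval of Ndufa7 (-0.02 to 1.25) includes 0. Of the genes taken by the symbols Rpl and Rps, 80 of 93 lay below 0 in white fat, as Rps28 did. The bases of their shared start are shown because both genes start in them. They are printed 5′ to 3′ on the plus strand of Ndufa7 (RefSeq, GRCm38.p6, chr17:33824553-33824581). The bases from the start of Rps28 to the first start of Ndufa7 are in capitals, and RefSeq lists a further Ndufa7 start downstream.
Ndufa7 and Rps28, shared start: ctctcgcgaGACCGCACGCGgtacccagg

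**Figure D5:**
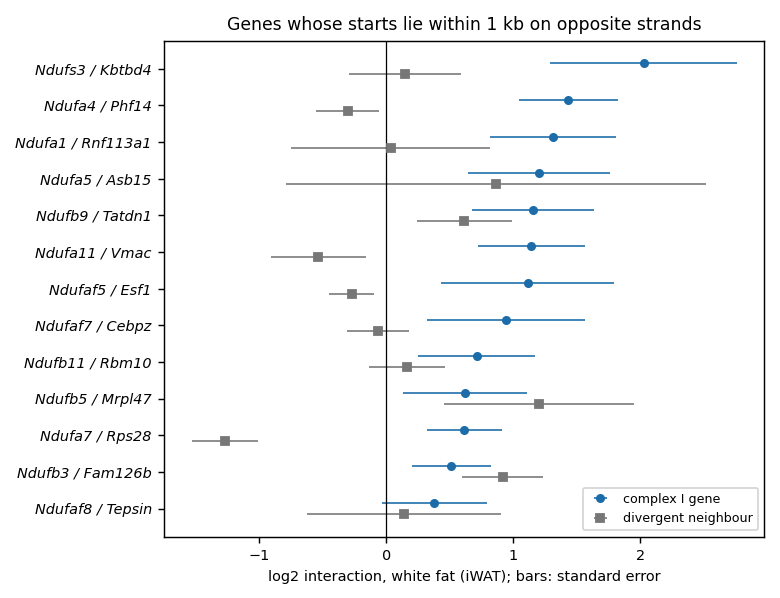
White fat log2 interaction (x axis, bars show the standard error) of 13 members (circles) and of the gene that starts within 1 kb on the opposite strand (squares). Over all 14 pairs members have a median of 1.10 and neighbours of 0.09, and Rps28 is the only neighbour past the adjusted p of 0.05.

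Overlap is a further limit, since the sources used here do not say whether the counting used strand. Of the members, 13 overlap another gene of the white fat table, 11 of them one on the opposite strand, as Ndufb5 does with Mrpl47 (616 bases). Strand would not separate genes that overlap on the same strand. Ndufa13 overlaps Yjefn3 in this way over 8379 bases, and Ndufc2 overlaps the pseudogene Gm16053 over 188. These lengths are of whole gene spans, introns included, and do not give how much exon sequence is shared. Among transcripts, Ndufc2 shared no 50-base window with another gene, and Ndufa13 shared most with Tssk6 (27.1% of its windows). Where exons of overlapping genes coincide, reads cannot be assigned to a gene with certainty.

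Other genes of the pathway were read beside the members, from lists taken by pathway or symbol, with earlier results of these data known. The 9 genes of the N module lay above 0 in white fat (9 of 9, median 1.13, none past the adjusted p of limma and 9 at an unadjusted p of 0.05), and 7 of 9 did in brown fat (median 0.11, none and 1). Of the 7 complex I mRNAs of the mitochondrial genome, 7 were above 0 in white fat (median 1.69) and 6 in brown fat (median 0.06), with none past the adjusted p in either and 4 and 2 at an unadjusted p of 0.05. The mRNA mt-Nd5 was at 1.79 ± 0.56 (adjusted p = 0.0726) and mt-Nd2 at 1.12 ± 0.37 (adjusted p = 0.0900, from the authors' deposited table). The white fat median is the value of mt-Nd4l, whose error was 1.20 and whose mean log2 expression was -1.22. The highest, mt-Nd3 at 3.63 ± 1.58, had a mean log2 expression of 0.62. The abundant mt-Nd1 and mt-Nd4 were lower, at 0.53 ± 0.33 and 0.40 ± 0.31, and mt-Nd6 was at 1.69 ± 0.78. Assembly factors with other names did likewise in white fat, with 13 of 14 above 0, a median of 0.61, 0 past the adjusted p and 5 at an unadjusted p of 0.05. In brown fat 12 of 14 were above 0 (median 0.21), with 0 at either. Foxred1, a flavoprotein of late assembly, was at 1.78 ± 0.54 (adjusted p = 0.0673) and Aifm1, which helps import small proteins of the intermembrane space, at 1.72 ± 0.55 (adjusted p = 0.0822, from the authors' deposited table). Of 45 nuclear subunits of complexes II to V taken by symbol, 43 were above 0 in white fat (median 0.995). None passed the adjusted p there, and 25 passed an unadjusted p of 0.05, all above 0. In brown fat 38 of 46 were above 0 (median 0.15), with none past the adjusted p. At the unadjusted p, 8 passed there above 0 and 1 below 0. The latter was Cox6a2 at -5.72 ± 1.24 (adjusted p = 0.131, limma), with a mean log2 expression of 0.66. Among 10 regulators of mitochondrial genes the side was mixed, with 6 above 0 in white fat, none past the adjusted p and 1, Esrra, at an unadjusted p of 0.05. Esrra, a nuclear receptor that drives respiratory genes, was at 1.20 ± 0.50 (adjusted p = 0.165) and Ppargc1b, a coactivator of such receptors, at 2.36 ± 1.10 (adjusted p = 0.206, from the authors' deposited table). In brown fat 7 of the 10 regulators were above 0, none at an adjusted or unadjusted p of 0.05.

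Fat holds many cell types, and in these bulk samples fewer cells of a type and less RNA per cell cannot be told apart. Markers of mature adipocytes were abundant in both depots, with a median length-scaled rank at percentile 99.4 in white fat and 99.0 in brown fat. Thermogenic adipocyte markers were at percentiles 80.02 and 99.1. In the white fat interaction, 10 of 10 mature adipocyte markers lay above 0 (median 0.50, none past the adjusted p), as did 8 of 8 thermogenic markers (median 3.59, 1 past it, the potassium channel gene Kcnk3), 8 of 8 skeletal muscle markers (median 3.75, none) and 6 of 6 measured mammary epithelial markers (median 2.34, none). At an unadjusted p of 0.05 these were 3, 1, 1 and 0 markers. T cell markers lay below 0 (7 of 7, median -8.17, 7 past the adjusted p), as did B cell markers (6 of 6, median -8.51, 3 past it, Blk, Cd22 and Ms4a1) and 80 of 93 genes taken by the symbols Rpl and Rps, which also takes in Rps6k kinases (median -1.12, 51 past it below 0). Macrophage markers had 2 of 6 above 0 (median -0.36) and endothelial markers 5 of 6 (median 0.55), none past the adjusted p and 0 and 2 at the unadjusted p. In brown fat 0 of 8 muscle markers lay above 0 (median -3.30, none past the adjusted p and 4 below 0 at an unadjusted p of 0.05). There 8 of 10 mature adipocyte markers lay above 0 (median 0.24, none past it and 4 above 0 at the unadjusted p), as did 5 of 8 thermogenic markers (median 0.10, none and 1). Also in brown fat, 2 of 3 measured T cell markers, 1 of 3 measured B cell markers, 2 of 6 macrophage markers, 3 of 6 endothelial markers and 43 of 92 Rpl and Rps genes were above 0, with none past the adjusted p. At the unadjusted p these were 0 T cell and 0 B cell markers, 2 macrophage markers and 1 endothelial marker below 0, and 1 ribosomal gene above and 3 below 0. The part of these cell types and of the ribosomal genes in the complex I values was not tested.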

How the data were processed

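The submitters' processing notes name featureCounts, limma and the build GRCm39. The sources used here do not give versions, aligner, annotation, strand setting or normalization. Each depot's deposited table holds limma's columns, per the file headers: the log2 interaction, the mean log2 expression, the moderated t (a score with no fixed range, deposited by the authors) and the p-value with its Benjamini-Hochberg adjustment over all genes, deposited by the authors.

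Dividing the interaction's size by that of t gave its standard error. The total degrees of freedom behind t and p were 13.4 in white fat and 33.9 in brown fat and set the 95% intervals. The deposited adjusted p was checked to equal the Benjamini-Hochberg value. No filter was added, and the threshold was 0.05. In all, 48 library columns, 12 in each of the 4 files, match no label and were used in no step, so depth is unknown and the planned fits over libraries were not made. Members, modules and lists were chosen with earlier results of these data known. Any member could be named, and of each other list at most the 2 genes with the smallest p. Beyond these, Rps28 and the other neighbours were chosen by position. Named after their values were seen were Ms4a1, Tmem45b, Ntrk3, Cox6a2, the pseudogenes and the overlap partners. So were the complex I mRNAs of the mitochondrial genome other than mt-Nd5 and mt-Nd2. Protein sequences were not used here. A single member's own values are not reported here, and it enters only counts and medians. Exon lengths and shared windows came from GENCODE M21 (GRCm38), matched by gene ID, with no coordinate taken from it. Scripts ran on matplotlib 3.10.9, scipy 1.17.1, pandas 2.3.3, numpy 2.4.6 and Python 3.11.15 and were tested on simulated data.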

Additional observations from a re-analysis of the deposited data

How the results depend on the processing

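The count of members past the adjusted p in white fat was 0 and became 5 at a threshold of 0.10. It became 1 (Ndufa4) with only genes whose mean log2 expression reached log2 of 10, and 1 (Ndufa4) with protein-coding genes only. It was 0 with Holm adjustment, relative to the median of all genes, without Ndufa4 and Ndufa4l2, without the assembly factors, and without the 6 members that share sequence with other genes, a limit of 20% of windows set after the data were seen. In brown fat it was 0 in each of these. The medians of the members stayed above 0 in each alternative run. In white fat the median was 1.10 and ran from 0.97 (relative to the median of all genes) to 1.15 (without the assembly factors). Counts above 0 changed only where members were left out or, in brown fat, with the sign change given next. For single members, 368 of 376 values kept their direction and side of the threshold, 7 passed only in the alternative, and 1 changed sign: Ndufs8 in brown fat, at -0.00615 relative to the median of all genes. Over all 16738 genes, 795 calls in white fat became 2027 at 0.10, 0 with Holm adjustment and 960 relative to the median. They were 551 of 9671 genes with the expression minimum and 769 of 13793 protein-coding genes, so 1 member is no larger a share than that of all genes tested there. Leaving out each replicate and changing the pseudocount or filter on library values were not run, because the library columns match no label. No paired analysis was possible because those columns carry no replicate number. Depth is unknown, and the standard error sets what could be detected.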
